A study of Mus musculus with 6 samples.

Results

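The genes of the Wnt pathway that act outside the cell, at its surface and on DNA were followed in chromatin immunoprecipitation sequencing (ChIP-seq) of mouse fetal myotubes. They were chosen by name from the protein-coding genes of a GENCODE annotation of NCBI Build 37 (mm9): every Wnt, Fzd, Sfrp and Dkk gene with a number in its symbol, together with Lrp5, Lrp6, Rspo1, Rspo2, Rspo3, Axin1, Axin2, Ctnnb1, Lef1, Tcf7, Tcf7l1 and Tcf7l2. This gave 49 of 22359 genes, of which 19 encode Wnt ligands, 10 Fzd receptors, 2 Lrp co-receptors, 4 Sfrp and 4 Dkk antagonists, 3 R-spondins, 3 Axins and β-catenin, and 4 Lef and Tcf factors. All 49 held enough input reads to be tested. The question was how much RNA polymerase II (Pol II) and how much of the transcription factor Sox6 lay on these genes.

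All libraries came from 1 kind of culture: primary myoblasts of wild-type C57BL/6 fetuses at E18.5, taken from limb muscle, carried at passage 17 and turned into myotubes by 48 h in DMEM with 2% horse serum. Sox6 ChIP, Pol II ChIP and input DNA, which is sheared chromatin that was not precipitated, were each sequenced in 2 replicates. The study's methods describe the 2 experiments of each ChIP as independent, and do not say this of the inputs. There was no second genotype, treatment or time, so each comparison is of a ChIP with input. The Pol II antibody recognises the repeat of the polymerase tail, and a Pol II read does not show whether that polymerase was elongating. Pol II in fewer cells and less Pol II per cell cannot be told apart.

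Wnt proteins are secreted, lipid-bearing signals that bind Frizzled (Fzd) receptors together with Lrp5 or Lrp6. In the absence of ligand a complex built on Axin marks β-catenin, the product of Ctnnb1, for destruction; with ligand β-catenin lasts, enters the nucleus and works with Lef and Tcf factors on DNA. Sfrp proteins trap Wnts, most Dkk proteins occupy the Lrp co-receptors, and R-spondins keep receptors at the surface. In muscle the pathway is known for its part in the onset of myogenesis in the embryo and in the differentiation of satellite cells.

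The libraries were of unequal depth, with 1538757 and 2762155 reads for Pol II, 2985437 and 1468604 for Sox6 and 21973495 and 24249850 for input. A single read in the 2 kb around a start therefore stood for 0.325 and 0.181 reads per kb and 1000000 library reads (RPKM) in the Pol II libraries. The labelled cell type was checked by Pol II on marker genes. All 6 myotube markers, among them Myog, Acta1 and Myh3, had more Pol II than input at the start, with a median log2 ratio of 5.18. None of 5 fibroblast and none of 3 endothelial markers did, while both satellite cell markers, Pax7 and Myf5, 1 of 3 blood markers (Cd68) and 1 of 3 neuron markers (Tubb3) did. Cd68, a gene of 1.94 kb, was too short for its body to be tested, and genes beside the markers were not looked up.

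At the gene starts, Pol II was read in the 2 kb centred on the start of the longest model of each gene. Pol II exceeded input at 12 of the 49 Wnt genes and fell below it at none. Of all 20814 genes tested, 40.3% had more Pol II than input and 1.39% had less (limma on 2 Pol II and 2 input libraries, Benjamini-Hochberg adjusted p under 0.05). At an unadjusted p under 0.05 the counts were 13 higher and 1 lower, against 42.9% and 3.35% of all genes. The median log2 ratio was 0.15 over the 49 genes and 0.73 over all genes. The 12 genes were Fzd1, Fzd2, Fzd3, Fzd7, Fzd8, Wnt4, Wnt9a, Lrp6, Axin1, Ctnnb1, Tcf7l1 and Tcf7l2. By role, 5 of 10 Fzd receptors, 2 of 19 Wnt ligands, 1 of 2 co-receptors, 2 of the 3 Axin and β-catenin genes and 2 of 4 Lef and Tcf factors passed, and no Sfrp, Dkk or Rspo gene did.

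**Figure D1:**
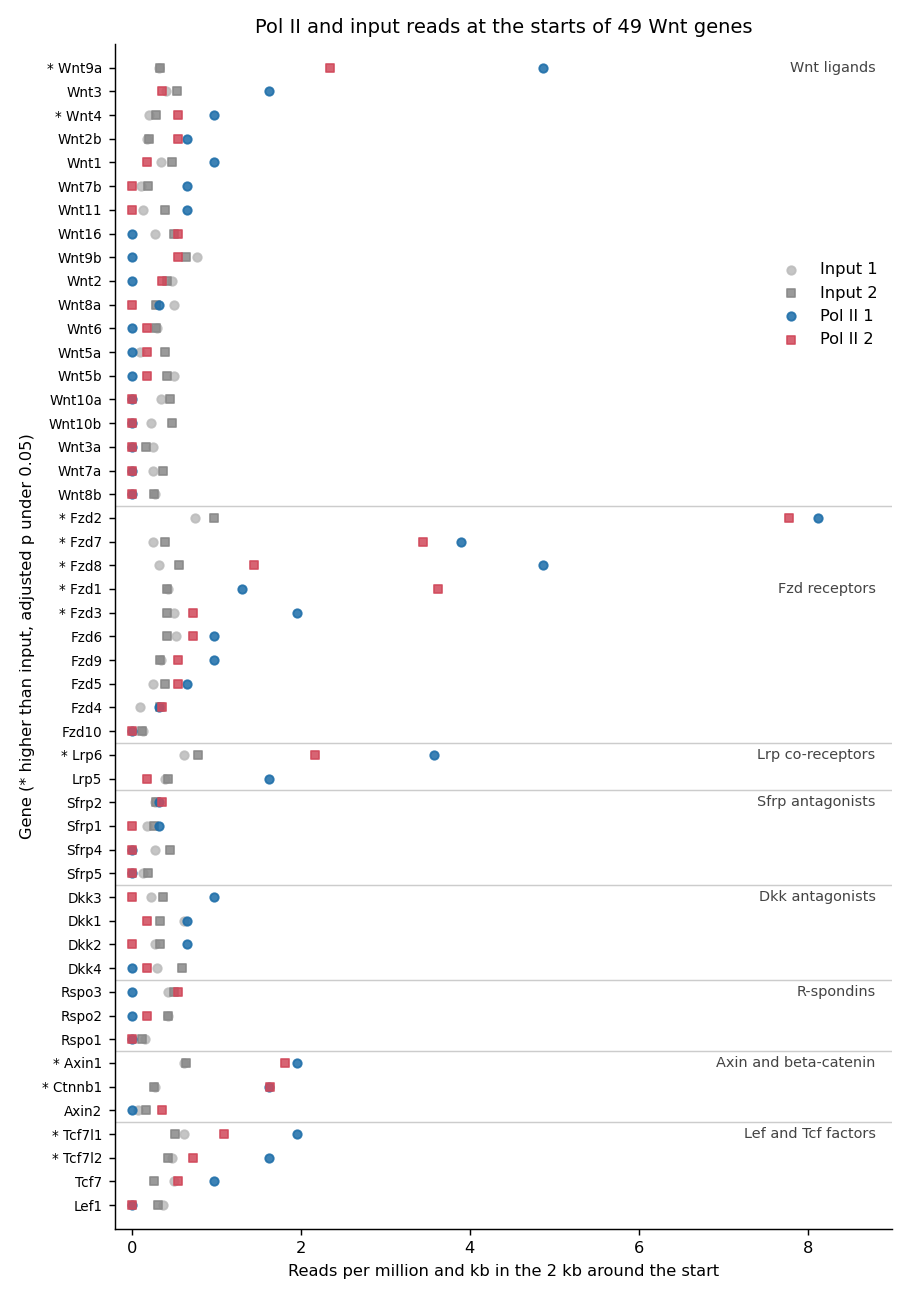
Pol II and input reads in the 2 kb around the start of each of the 49 genes, 1 point a library, on a linear axis in RPKM, with genes grouped by role and ordered by mean Pol II level. Fzd2 stood farthest to the right at 8.12 and 7.78, Fzd7, Fzd8 and Wnt9a followed, and the R-spondins and Sfrp antagonists reached no more than 0.543.

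Among the receptors, Fzd2 (chr11:102465745-102469372, plus strand) carried the most Pol II at its start of all 49 genes. Its Pol II libraries gave 8.12 and 7.78 RPKM against 0.751 and 0.969 RPKM in the inputs. The log2 ratio was 3.22 ± 0.28 (SE, adjusted p = 1.17e-28, limma). Both Pol II values were several times either input value, and the pair lay close together.

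Fzd7 (chr1:59538991-59543791, plus strand), a receptor known from satellite cells, had the highest ratio at the start. It gave 3.9 and 3.44 RPKM of Pol II against 0.25 and 0.392 RPKM of input, a log2 ratio of 3.55 ± 0.41 (adjusted p = 1.43e-16). Fzd8 and Fzd1 also stood above input in both libraries, but their replicates were far apart and in opposite order. Fzd8 had 4.87 and 1.45 RPKM of Pol II against 0.319 and 0.557 RPKM of input (log2 ratio 2.69 ± 0.42), and Fzd1 had 1.3 and 3.62 against 0.432 and 0.412 RPKM (2.43 ± 0.44). Fzd3, a receptor of planar cell polarity signalling, was the lowest of the receptors that passed, with 1.95 and 0.724 RPKM of Pol II against 0.501 and 0.412 RPKM of input and a log2 ratio of 1.5 ± 0.52 (adjusted p = 0.0105).

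The 5 other receptors, Fzd4, Fzd5, Fzd6, Fzd9 and Fzd10, lay between 0 and 0.975 RPKM of Pol II at the start and did not pass the test. Fzd1, Fzd2, Fzd7, Fzd8, Fzd9 and Fzd10 are the only members with a single exon in the models used.

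Among the 19 ligands Wnt9a and Wnt4 passed the test at the start. Wnt9a (chr11:59120430-59147054, plus strand), a ligand known from joint formation, gave 4.87 and 2.35 RPKM of Pol II against 0.319 and 0.33 RPKM of input. Its log2 ratio was 3.39 ± 0.42 (adjusted p = 7.26e-15), and both Pol II values lay far above both inputs. Wnt4 (chr4:136833404-136855641, plus strand), a ligand known from kidney and gonad development, rested on 3 reads in each Pol II library, or 0.975 and 0.543 RPKM against 0.205 and 0.289 RPKM of input (log2 ratio 1.74 ± 0.72, adjusted p = 0.04). The 17 other ligands lay between 0 and 1.62 RPKM of Pol II, with log2 ratios from -1.74 to 1.81. Wnt3a, the ligand most used to switch on β-catenin in culture, and Wnt7a, known from satellite cell biology, had no Pol II read at the start in either library.

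Of the co-receptors, Lrp6 (chr6:134396494-134516931, minus strand) gave 3.57 and 2.17 RPKM of Pol II at the start against 0.614 and 0.784 RPKM of input (log2 ratio 2.04 ± 0.36, adjusted p = 7.12e-08). Lrp5 split between its replicates, at 1.62 and 0.181 RPKM against 0.387 and 0.433 RPKM of input, and did not pass (log2 ratio 0.73 ± 0.66, adjusted p = 0.421).

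Inside the cell, Ctnnb1 (chr9:120842518-120869625, plus strand) had 1.62 and 1.63 RPKM of Pol II against 0.273 and 0.268 RPKM of input at its start, a log2 ratio of 2.64 ± 0.56 (adjusted p = 8.8e-06). Both replicates lay close together and neither overlapped input. The start used was that of the longest model. At the start annotated farthest 5′ (chr9:120838334), Pol II gave 0 and 1 reads against 15 and 20 input reads, and the log2 ratio turned to -0.88 (adjusted p = 0.467). Axin1, the scaffold of the destruction complex, gave 1.95 and 1.81 RPKM of Pol II against 0.614 and 0.639 RPKM of input (log2 ratio 1.65 ± 0.41, adjusted p = 0.000185). Both Pol II values were above both inputs. Axin2, the usual reporter gene of β-catenin signalling, had 0 and 2 Pol II reads at its start and did not pass (log2 ratio 1.2 ± 0.85, adjusted p = 0.279).

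The nuclear factors Tcf7l1 and Tcf7l2 passed with small ratios. Tcf7l1, mostly known as a repressor, gave 1.95 and 1.09 RPKM of Pol II against 0.614 and 0.515 RPKM of input (log2 ratio 1.46 ± 0.45, adjusted p = 0.00385). Tcf7l2 gave 1.62 and 0.724 RPKM against 0.478 and 0.433 RPKM (1.37 ± 0.53, adjusted p = 0.0253). Tcf7 had 0.975 and 0.543 RPKM of Pol II and did not pass (adjusted p = 0.142), and Lef1 had no Pol II read at its start.

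None of the secreted modulators passed the test at its start. With libraries scaled to bins free of genes and peaks Sfrp2 was called higher there, as were 59.3% of all genes. The highest mean Pol II level at the start was that of Sfrp2 among the Sfrp genes (0.325 and 0.362 RPKM against 0.273 and 0.289 RPKM of input), that of Dkk3 among the Dkk genes (0.975 and 0 RPKM against 0.228 and 0.371), and that of Rspo3 among the R-spondins (0 and 0.543 RPKM against 0.432 and 0.495). Their log2 ratios were 0.69 ± 0.81, 0.09 ± 0.85 and -0.56 ± 0.79. At 10 of the 49 starts, Fzd10, Lef1, Rspo1, Sfrp4, Sfrp5, Wnt3a, Wnt7a, Wnt8b, Wnt10a and Wnt10b, there was no Pol II read in either library, which allows up to 0.975 and 0.543 RPKM (3 reads a library, counting error only).

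The start calls rested on few reads. With voom weights Fzd2 alone of the 12 passed (3.59% of all genes), an exact binomial test in each replicate left Fzd2, Fzd7, Wnt9a, Lrp6 and Ctnnb1 (23.0% of all genes), and Wnt4 did not pass with the replicate number as a block. Without either input replicate Fzd3, Tcf7l1, Tcf7l2 and Wnt4 did not pass, without the first Pol II replicate Fzd3 and Tcf7l2 did not pass and 9 genes were called lower (14.0% of all genes), and without the second 24 genes were called higher and 8 lower (49.6% and 9.5% of all genes), the lone Pol II library being assumed to vary like the inputs. With a pseudocount equal in RPM (reads per 1000000 library reads) in every library, the 10 starts without a Pol II read were called lower (13.8% of all genes), and Fzd3, Tcf7l1, Tcf7l2 and Wnt4 did not pass.

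The starts with Pol II were rich in CpG, the dinucleotide that marks many housekeeping and developmental promoters. The ratio of observed to expected CpG in the 2 kb window had a median of 0.81 over the 12 genes (range 0.652 to 0.967) and of 0.631 over the 37 others (0.283 to 0.867). Among all genes the medians were 0.639 with and 0.313 without a Pol II call, so the Wnt genes without a call lay near the level of called genes at large. The 250 bases before the start are shown for Wnt9a, Lrp6 and Ctnnb1, which of the 12 genes hold the most CpG there. Each CpG is in capitals, on the strand of the gene and from the NCBI Build 37 sequence.
Wnt9a promoter (chr11:59120180-59120429, plus strand): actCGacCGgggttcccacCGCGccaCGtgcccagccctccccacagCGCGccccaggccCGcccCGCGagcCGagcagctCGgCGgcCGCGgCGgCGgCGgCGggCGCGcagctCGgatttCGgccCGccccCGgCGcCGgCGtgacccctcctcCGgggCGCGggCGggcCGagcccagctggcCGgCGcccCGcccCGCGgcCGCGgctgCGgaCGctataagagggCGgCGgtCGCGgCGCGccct
Lrp6 promoter (chr6:134516932-134517181, minus strand): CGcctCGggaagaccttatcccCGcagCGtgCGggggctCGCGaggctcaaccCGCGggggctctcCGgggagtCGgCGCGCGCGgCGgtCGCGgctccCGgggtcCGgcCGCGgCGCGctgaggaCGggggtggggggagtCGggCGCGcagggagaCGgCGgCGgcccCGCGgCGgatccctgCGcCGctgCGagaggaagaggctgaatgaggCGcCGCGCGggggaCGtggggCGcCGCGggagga
Ctnnb1 promoter (chr9:120842268-120842517, plus strand): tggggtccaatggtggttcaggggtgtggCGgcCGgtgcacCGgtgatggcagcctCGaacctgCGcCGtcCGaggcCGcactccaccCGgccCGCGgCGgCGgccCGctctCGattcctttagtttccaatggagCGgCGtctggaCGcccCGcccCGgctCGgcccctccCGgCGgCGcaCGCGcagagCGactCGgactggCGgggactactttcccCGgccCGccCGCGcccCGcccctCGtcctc
These stretches hold 48 CpG in Wnt9a, 45 in Lrp6 and 35 in Ctnnb1. The count and Pol II did not always go together: Fzd2, with the most Pol II, holds 10, and Wnt3a, with no Pol II read, holds 41. TCF/LEF letters (CTTTGAA or CTTTGAT, both strands), searched because several Wnt genes are known targets of the pathway, occurred in the 300 bases from 250 before to 50 after the start of 4 of the 49 genes (8.16%) and of 7.78% of all genes.

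In gene bodies, read from 1 kb after the start to the end of the gene, some of the Wnt genes lay above input, some below it, and 15 were called neither way. Pol II was higher than input at 15 of the 49 genes (30.6%) against 38.3% of the 18503 genes tested, and lower at 19 against 25.6%. The median log2 ratio was -0.27 over the 49 genes and 0.13 over all genes. Ratios below 0 depend on scaling to all reads: with libraries scaled to bins free of genes and peaks the median of all genes moved from 0.13 to 1.44, 28 Wnt genes were higher and 2 lower (64.3% and 2.22% of all genes), and 96.7% of all calls were higher in place of 59.9%. The counts higher and lower were 12 and 11 with the exact binomial test (31.2% and 15.7% of all genes). With voom weights they were 15 and 14 (37.7% and 23.4%). Without the first or the second input replicate the median log2 ratio was -0.25 or -0.36 over the 49 genes. Over all genes it was then 0.09 or 0.19.

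The genes above input in their bodies were Fzd1, Fzd2, Fzd7, Fzd9, Wnt2b, Wnt4, Wnt9a, Dkk4, Lrp5, Lrp6, Axin1, Axin2, Ctnnb1, Tcf7 and Tcf7l2. Both co-receptors and all 3 of the Axin and β-catenin genes were among them. Fzd2 again led with 9.64 and 10.9 RPKM of Pol II in its body against 0.987 and 1.4 RPKM of input (log2 ratio 3.13 ± 0.24, adjusted p = 4.26e-06). Fzd7 had 3.08 and 4.57 RPKM against 0.503 and 0.532 (2.87 ± 0.3). Fzd9, which lies 2809 bases from Baz1b, had 3.02 and 6.16 RPKM of Pol II in the short body of its single exon against 0.598 and 0.606 RPKM of input (2.87 ± 0.48, adjusted p = 0.000618). For all 3 receptors each Pol II value exceeded both inputs.

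Wnt4 and Wnt9a were the ligands with the most Pol II in the body, at nearly the same ratio. Wnt4 gave 1.81 and 1.86 RPKM against 0.456 and 0.522 RPKM of input (log2 ratio 1.91 ± 0.15, adjusted p = 4.41e-06), from 59 and 109 Pol II reads. Wnt9a gave 2.23 and 2.77 RPKM against 0.627 and 0.718 RPKM (1.89 ± 0.14, adjusted p = 3.84e-06). The call at Wnt4 thus rested on many more reads in its body than at its start. Wnt2b passed with a small ratio of 0.68 ± 0.19, from 0.817 and 0.797 RPKM of Pol II against 0.521 and 0.5 RPKM of input.

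Ctnnb1 had 2.14 and 2.32 RPKM of Pol II in its body against 0.769 and 0.749 RPKM of input (log2 ratio 1.56 ± 0.12, adjusted p = 3.58e-06). Tcf7 had 1.05 and 1.53 RPKM against 0.52 and 0.574 RPKM (1.23 ± 0.18). Lrp6, Tcf7l2, Axin1 and Lrp5, which are longer genes, had ratios of 0.91 ± 0.08, 0.8 ± 0.09, 0.76 ± 0.13 and 0.65 ± 0.12. Axin2 had 0.309 and 0.517 RPKM of Pol II against 0.224 and 0.213 RPKM of input (0.9 ± 0.27, adjusted p = 0.0158), so its level was low on either side. Dkk4, the only antagonist above input, had 6 and 8 Pol II reads in its body (1.71 ± 0.46, adjusted p = 0.00911) and lies 583 bases from Polb, while Axin1 lies 188 bases from Pdia2 and Ctnnb1 754 bases from Ulk4. Without either input replicate Dkk4, Fzd1 and Wnt2b did not pass, and without the second Axin2 did not.

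The genes below input were mostly ligands and secreted modulators: 9 Wnt ligands, 3 of 4 Sfrp genes, 2 of 4 Dkk genes, all 3 R-spondins, Fzd6 and Lef1. Their Pol II levels in the body lay between 0 and 0.606 RPKM and their log2 ratios between -2.87 and -0.54. Sfrp2, an antagonist made by mesenchymal cells, had 0 and 1 Pol II reads in its body against 71 and 70 input reads, which is a ratio of 0.0762 over both replicates (exact 95% interval 0.00192 to 0.432, counting error only). Sfrp4 had 0 and 3 Pol II reads against 99 and 74 (ratio 0.186, interval 0.0381 to 0.554).

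Rspo2, which amplifies Wnt signals in the limb, was the only one of the 19 to be called lower under each of the 13 alternatives tried. Its body gave 0.113 and 0.155 RPKM of Pol II against 0.47 and 0.43 RPKM of input (log2 ratio -1.74 ± 0.15, adjusted p = 1.07e-05). Wnt2 had 0.144 and 0.107 RPKM against 0.495 and 0.446 RPKM (-1.86 ± 0.23), and Rspo3 had 0.286 and 0.23 RPKM against 0.727 and 0.648 RPKM (-1.4 ± 0.14). In each of these genes both Pol II values lay under both input values.

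The 14 others below input had ratios closer to 0. Those of Dkk2, Rspo1, Wnt3a, Sfrp1 and Wnt7b were -1.24 ± 0.15, -1.17 ± 0.4, -1.12 ± 0.22, -1.03 ± 0.24 and -1.02 ± 0.2. Those of Dkk3, Wnt3, Wnt5a, Lef1 and Wnt11 were -0.98 ± 0.18, -0.92 ± 0.13, -0.83 ± 0.3, -0.78 ± 0.11 and -0.68 ± 0.26. Wnt5a and Wnt11 did not pass with the replicate number as a block, and Wnt11 kept its call in 4 of the 13 alternatives. Wnt5b, Wnt7a, Fzd6 and Wnt9b were the nearest to input, at -0.59 ± 0.1, -0.58 ± 0.16, -0.57 ± 0.17 and -0.54 ± 0.18. Scaled to bins free of genes and peaks, Wnt5b, Wnt7a, Fzd6, Wnt9b, Lef1 and Wnt3 were called higher, as were 64.3% of all genes. The gene Fbxl14 is annotated inside Wnt5b, and Gm15401 inside Tcf7l1, so reads of either pair cannot be told apart. Fewer genes were called lower without 1 input replicate: 10 without the first and 11 without the second (16.5% and 16.4% of all genes), and Fzd6, Rspo1, Sfrp2, Wnt5a, Wnt7a, Wnt9b and Wnt11 passed in neither.

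**Figure D2:**
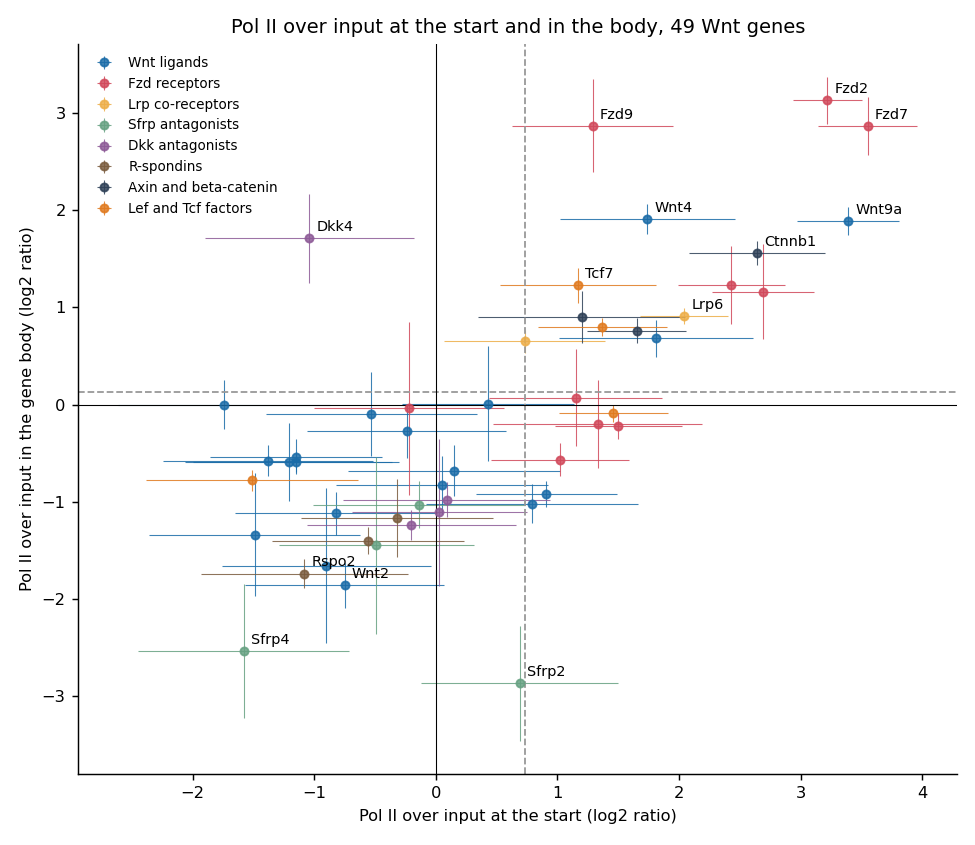
Log2 ratio of Pol II over input at the start and in the body of each gene, with SE bars, coloured by role; dashed lines mark the medians of all genes tested (0.73 and 0.13), and both axes share the same 4 libraries. Fzd2, Fzd7 and Wnt9a sit at the upper right, Sfrp2 and Sfrp4 at the bottom, and Fzd9 and Dkk4 are high in the body without a call at the start.

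Pol II was read along the bodies of genes it covered, and 5 genes are given as examples chosen after their values were seen. When each body was cut into equal parts from 5′ to 3′, Wnt4 gave 0.734 and 1.02 RPKM of Pol II in the first part, 1.84 and 2.15 in the middle and 2.85 and 2.4 in the last. Tcf7 likewise had 0.725 and 1.14 RPKM in its first part and 1.71 and 2.42 in its last. Wnt9a ran the other way, from 2.97 and 3.81 RPKM in the first part to 1.6 and 1.57 in the last, and so did Tcf7l2, from 1.4 and 1.68 to 0.613 and 0.933. For these 4 genes both replicates moved in the same direction. Input moved the same way to a lesser extent in Tcf7 (from 0.434 and 0.502 RPKM to 0.619 and 0.653), Wnt9a (from 0.693 and 0.826 to 0.448 and 0.618) and Tcf7l2 (from 0.689 and 0.706 to 0.567 and 0.547), whereas in Wnt4 it was 0.45 and 0.466 in the first part and 0.379 and 0.513 in the last. No test was run on these differences, and Lrp6 had 1.75 and 1.69 RPKM of Pol II in its first part and 1.57 and 1.68 in its last. The Pol II peak called nearest to Tcf7 was centred 0.055 kb past its end in replicate 2 and 20.5 kb away in replicate 1. For Wnt4 the distances were 0.86 kb past its end and 8.82 kb. The part of Pol II outside these genes in their rise was not tested.

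**Figure D3:**
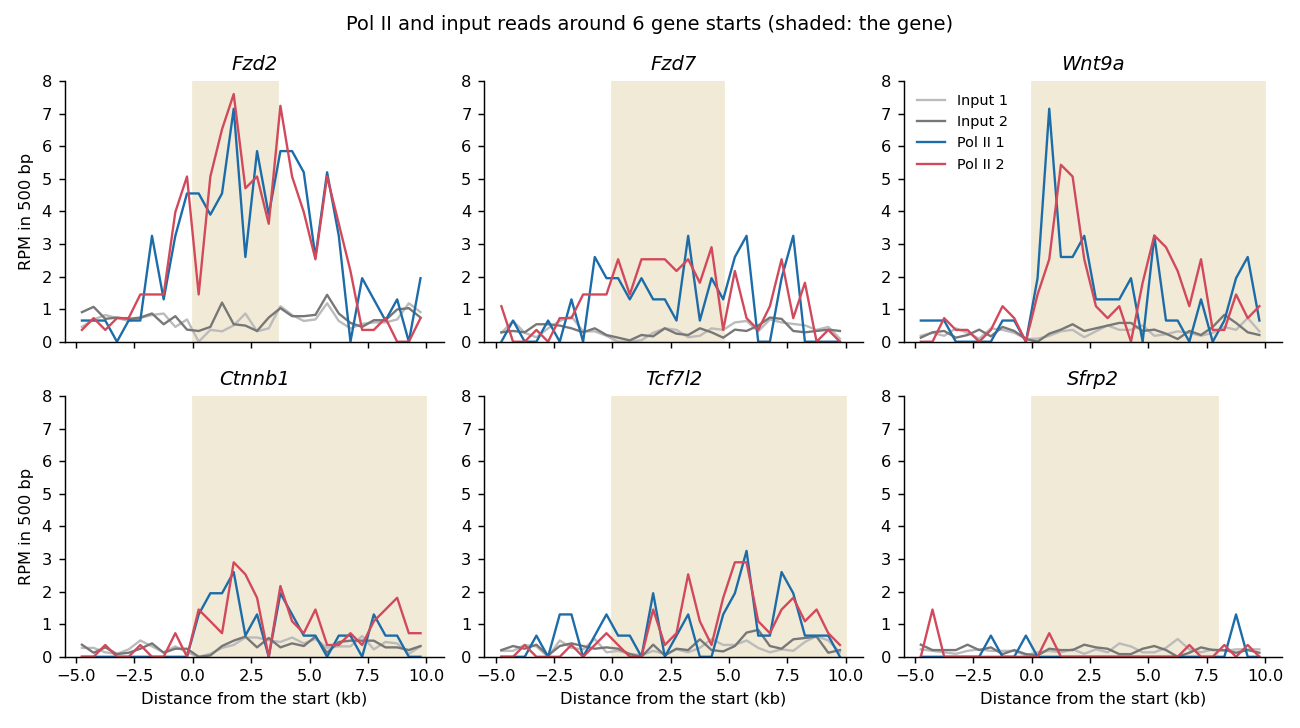
Pol II and input RPM in 500 bp bins from 5 kb before to 10 kb after the start of 6 genes, 1 line a library, with the gene shaded. Pol II covered all of Fzd2 and went on past its end in both replicates, rose just inside Wnt9a, and in Sfrp2 stayed at or near 0 in most bins.

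The peaks called by the authors for Pol II gave a sparser picture of the same genes. A Pol II peak of replicate 1 had its centre inside Fzd2, Fzd8 and Wnt9a, 3 of the 49 genes, against 11.5% of all genes. A peak of replicate 2 lay inside Fzd2, Wnt9a, Ctnnb1, Lrp6 and Tcf7l2, 5 of 49, against 15.8% of all genes. Fzd2 held 3 peaks of replicate 1 and 2 of replicate 2, and Wnt9a held 1 and 4.

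A further 44 genes of the pathway were read in the same way. They encode enzymes and carriers of Wnt secretion, the Dvl proteins, the kinases of the destruction complex, other receptors and antagonists, coactivators and targets. Pol II exceeded input at the starts of 22 of them and was lower at 1, with a median log2 ratio of 1.28, against 40.3% higher and 1.39% lower among all genes. In bodies it was higher at 26 and lower at 10, against 38.3% and 25.6% of all genes. Bcl9l and Pygo2, coactivators of β-catenin, had log2 ratios at the start of 4.13 and 3.52, whereas their relatives Bcl9 and Pygo1 were not called there, at 1.16 and 0.57. In the body Bcl9l, Pygo2 and Bcl9 were higher, at 2.68, 3.02 and 0.6, and Pygo1 was lower at -2.29, from 1 and 19 Pol II reads. The ratios at the start were, for Gsk3b and Csnk1a1, kinases that mark β-catenin, 3.55 and 3.32, and for Wls, the carrier needed to secrete Wnts, 2.97. All 3 Dvl genes passed at the start, with 3.09 for Dvl1, 2.97 for Dvl2 and 2.87 for Dvl3. Receptors of R-spondins differed in the body: Lgr5 and Lgr6 were lower, at -1.15 and -1.24, and Lgr4 was not called, at -0.04. Of the ligases that remove Wnt receptors, Rnf43 was lower at -1.22 and Znrf3 higher at 0.84, and of the other Wnt receptors Ror1 and Ror2 were lower, at -0.98 and -0.88, and Ryk higher at 0.86. Kremen1, a partner of the Dkk antagonists, and Nkd1, a feedback inhibitor, were higher at 1.75 and 0.85, while Kremen2 and Nkd2 were not called, at 0.55 and 0.43. Frzb, a relative of the Sfrp antagonists, was lower at -1.14.

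Sox6 exceeded input at few of the Wnt genes and at few of all genes. At the starts no Wnt gene passed the test in limma, against 0.404% of all genes, and the median log2 ratio was 0.8 over the 49 genes and 0.42 over all genes. At an unadjusted p under 0.05, 9 of the 49 were higher and 0 lower, against 12.7% and 0.778% of all genes. The exact binomial test called none (0.12% of all genes). Fzd4 alone was called with voom weights (0.721%), with the replicate number as a block (1.47%) and with no filter on reads (4.24%). Without Sox6 replicate 1 or 2 the median log2 ratio was 1.12 or 0.54 over the 49 genes and 0.68 or 0.29 over all genes. Fzd4 had the highest ratio at the start, with 5 Sox6 reads in each library against 4 and 16 input reads (log2 ratio 2.81 ± 0.74, adjusted p = 0.107). Sox6 levels at the 49 starts ran from 0 to 1.34 RPKM in replicate 1 and from 0 to 2.38 RPKM in replicate 2.

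In gene bodies Sox6 exceeded input at 5 Wnt genes (10.2%) against 5.32% of all genes, and was lower at none against 1.76%. At an unadjusted p under 0.05, 18 were higher and 4 lower, against 20.2% and 7.8% of all genes. The 5 genes that passed the adjusted threshold were Fzd7, Tcf7, Wnt3, Wnt4 and Wnt7b. Wnt4 had 0.883 and 1.03 RPKM of Sox6 against 0.456 and 0.522 RPKM of input (log2 ratio 0.98 ± 0.18, adjusted p = 0.0252). Tcf7 had 0.974 and 0.921 RPKM against 0.52 and 0.574 RPKM (0.8 ± 0.15, adjusted p = 0.0252). Both Sox6 values stood above both inputs in these genes, by a smaller margin in Tcf7 than in Wnt4.

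Fzd7 had 1.15 and 1.97 RPKM of Sox6 from 13 and 11 reads (log2 ratio 1.58 ± 0.39, adjusted p = 0.0452), Wnt7b 0.605 and 0.63 RPKM (0.76 ± 0.16) and Wnt3 1.31 and 1.51 RPKM (0.63 ± 0.12). The Pol II comparison, which used the same inputs, gave log2 ratios in the bodies of 2.87 for Fzd7, 1.91 for Wnt4 and 1.23 for Tcf7, and of -0.92 for Wnt3 and -1.02 for Wnt7b. GC content moved with the Sox6 calls: the median GC of the body was 45% over all genes tested, 50.6% over all genes called for Sox6, 49.5% over the Wnt genes and 52.6% over the 5, and its part in the result was not tested. None of the 5 passed without the first input replicate or with a pseudocount equal in RPM, and without the second input replicate Wnt3 and Wnt4 remained. Without Sox6 replicate 1, 24 genes were higher and 8 lower (34.8% and 15.5% of all genes), and without replicate 2, 17 were higher and 3 lower (21.3% and 10.1%). With the replicate number as a block, 12 were higher and 3, Dkk2, Fzd3 and Rspo3, lower (14.2% and 6.24% of all genes). Voom weights gave 7 higher, with Tcf7l1 and Tcf7l2 added to the 5, and 1 lower, Fzd3 (7.1% and 1.71%).

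**Figure D4:**
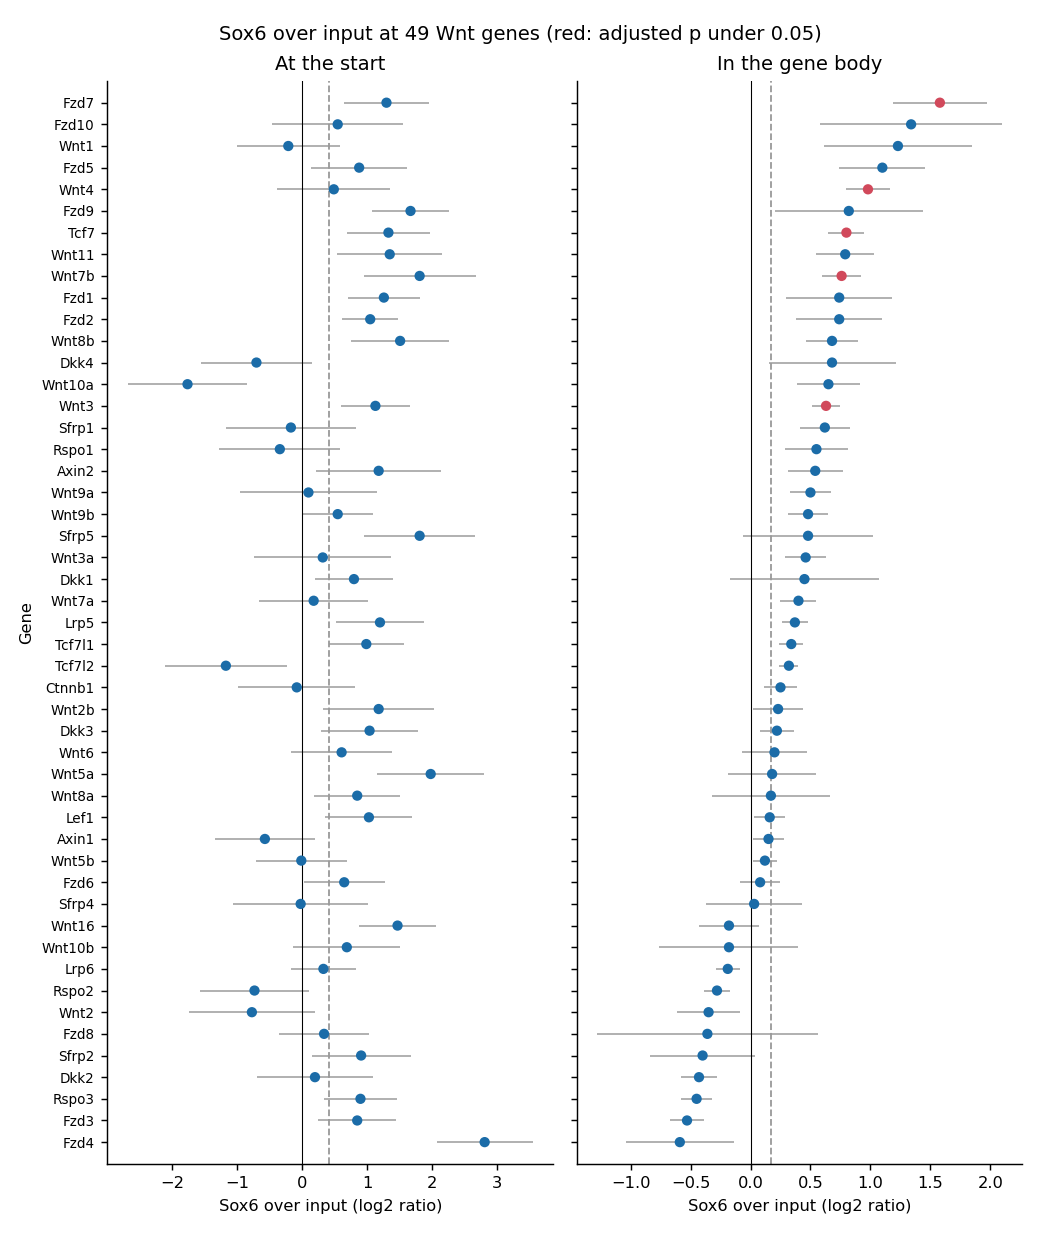
Log2 ratio of Sox6 over input at the start (left) and in the body (right) of the 49 genes, with SE bars, ordered by the ratio in the body; red points passed at an adjusted p under 0.05 and dashed lines mark the medians of all genes tested (0.42 and 0.17). No point is red at the start, and 5 are red in the body.

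No Sox6 peak of the list common to both replicates lay within 20 kb of any of the 49 genes. Among all genes 4.31% had such a peak within that distance, and 0 of 49 allows a share of up to 6.12%, so a lower share among the Wnt genes was not detectable. The nearest was 51.2 kb from Wnt9a (chr11:59198202-59198361). The next distances were 70.0 kb for Dkk3, 89.9 kb for Fzd8 and 94.0 kb for both Fzd2 and Wnt3a. The median distance was 794 kb over the 49 genes and 809 kb over all genes.

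Peaks called in 1 replicate lay within 20 kb of 3 Wnt genes. The replicate 1 list had 2 peaks near Fzd2 and 1 each in Fzd6 and Tcf7l1 (3 of 49 genes against 9.62% of all genes). The replicate 2 list had 1 peak in Tcf7l1 (1 of 49 against 6.63%). The 5 peaks are printed here in full, or as the central 300 bases of the wider one, from the plus strand of NCBI Build 37. Sox letters (ACAAAG or ACAATG) and the E-box letters CAGCTG or CAGGTG, which myogenic factors are known to bind, are in capitals on either strand.
Fzd2, 2159 bases past the end (chr11:102471512-102471551): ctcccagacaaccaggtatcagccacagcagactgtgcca
Fzd2, 7779 bases past the end (chr11:102477001-102477300): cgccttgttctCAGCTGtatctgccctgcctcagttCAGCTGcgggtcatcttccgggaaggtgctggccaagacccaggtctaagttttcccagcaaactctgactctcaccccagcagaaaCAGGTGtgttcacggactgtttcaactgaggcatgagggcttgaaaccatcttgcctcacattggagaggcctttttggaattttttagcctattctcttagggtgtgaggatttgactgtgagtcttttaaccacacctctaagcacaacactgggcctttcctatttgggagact
Fzd6, intron 2 (chr15:38852472-38852631): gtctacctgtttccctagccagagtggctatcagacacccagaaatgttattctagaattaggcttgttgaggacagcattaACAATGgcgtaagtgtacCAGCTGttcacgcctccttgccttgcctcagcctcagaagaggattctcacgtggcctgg
Tcf7l1, intron 3, replicate 1 (chr6:72664692-72664731): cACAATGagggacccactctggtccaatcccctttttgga
Tcf7l1, intron 3, replicate 2 (chr6:72690632-72690871): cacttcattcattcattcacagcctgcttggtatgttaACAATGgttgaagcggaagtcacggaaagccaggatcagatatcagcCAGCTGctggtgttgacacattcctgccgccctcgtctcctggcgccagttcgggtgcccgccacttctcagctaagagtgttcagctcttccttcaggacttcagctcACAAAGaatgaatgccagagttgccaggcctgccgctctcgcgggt
The peaks in Fzd6 and Tcf7l1 each hold Sox letters and those near Fzd2 hold none in the 300 bases around their centres, where 57.5% of replicate 1 peaks and 60.4% of replicate 2 peaks hold them. E-box letters occur in 3 of the 5 peaks, 3 times in the second Fzd2 peak and once each in the Fzd6 and the second Tcf7l1 peak, and in 72.6% of replicate 1 and 73.8% of replicate 2 peaks. None of the 5 holds TCF/LEF letters, which occur in 10.4% and 10.6%.

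Since the reads that called a peak cannot test it, each peak was tested with the Sox6 and input reads of the other replicate in 450 bp around its centre. Of the 5, 1 had more Sox6 than input there, the second Tcf7l1 peak. Among all peaks, 67.0% of replicate 1 and 84.4% of replicate 2 did. Those shares include peaks called in both replicates, unlike the 5, and peaks called in a single replicate were not counted apart. At the second Tcf7l1 peak Sox6 gave 6 and 8 reads, or 2.01 and 5.45 RPM, against 0.592 and 0.577 RPM of input. The ratio in replicate 1, which had not called it, was 3.4 (exact 95% interval 1.06 to 9.58, adjusted p = 0.0246, exact binomial test). In 1 kb windows, where 69.4% of replicate 1 and 86.4% of replicate 2 peaks held, or with reads at the same position counted once, this peak no longer passed.

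The wider Fzd2 peak (chr11:102476952-102477351) had 17 and 6 Sox6 reads, or 5.69 and 4.09 RPM against 1.37 and 1.57 RPM of input. Its ratio in replicate 2 was 2.61 (interval 0.901 to 6.22, adjusted p = 0.0549, exact binomial test), and it passed with reads at the same position counted once. The other Fzd2 peak had 9 Sox6 reads in replicate 1 and 0 in replicate 2, where input gave 31. Pol II was also above input at these sites, with ratios of 5.19 and 3.96 at the first and of 4.28 and 1.85 at the wider one, and its part in the Sox6 reads was not tested. The Fzd6 peak had 7 and 1 Sox6 reads, or 2.34 and 0.681 RPM, and the first Tcf7l1 peak 4 and 2, or 1.34 and 1.36 RPM. Their ratios in replicate 2 were 1.83 (interval 0.0419 to 13.2) and 5.5 (0.543 to 30.8). The exact binomial test there gave adjusted p = 0.491 and 0.0965, so neither could be told from input at this depth.

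**Figure D5:**
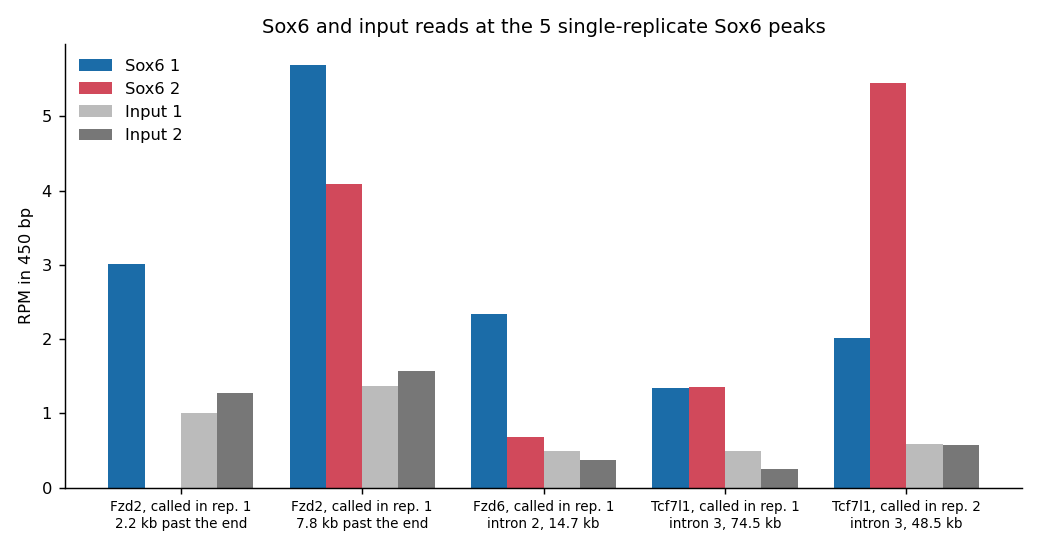
Sox6 and input RPM in the 450 bp around each of the 5 peaks called in a single Sox6 replicate near a Wnt gene, 1 bar a library, with the gene, the calling replicate and the position from the gene under each group. At each peak the Sox6 bar of the calling replicate is high by selection, and in the other replicate the second Tcf7l1 peak alone passed the test. The first Fzd2 peak has no Sox6 bar in replicate 2.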

How the data were processed

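The deposited files held the positions of single-end reads that the authors had aligned with Bowtie 0.12.5 to NCBI Build 37 (mm9), keeping unique hits, and lists of peaks called against matched input, with a list of Sox6 peaks common to both replicates. Reads were 36 bases long in the first input replicate and 39 in every other library, and the effect of this difference was not tested. The deposited Pol II lists also held a score for each peak, which was not used. The 5′ end of each read was assigned to the 2 kb around the start of the longest protein-coding model of each gene (GENCODE vM1) and from 1 kb after it to the gene end, for genes over 2 kb. RPKM is reads per kb and 1000000 library reads, and RPM leaves out the length.

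Each ChIP (2 libraries) was compared with input (2 libraries) by limma 3.58.1 with a trend, in R 4.3.3, on log2 RPM with 0.5 reads added, over genes with at least 10 input reads, with Benjamini-Hochberg adjustment over all genes tested. The 0.5 reads are worth more RPM in the shallower ChIP libraries. A ratio with few ChIP reads therefore depends on this pseudocount. Sox6 and Pol II comparisons share the input libraries. Single-replicate peaks were tested by a two-sided exact binomial test on the reads of the other replicate in 450 bp, adjusted over all peaks of the list. Intervals are exact 95% and cover counting error only. The fit was tested on simulated data. The labels do not say whether replicates came from separate cultures, so p-values measure the spread between these libraries. In limma the spread of each gene is drawn toward a trend fitted over all genes. A SE or p-value from limma thus does not show how closely the replicates agreed at that gene.

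Genes were named where Pol II was called at the start or in the body, where a Sox6 peak lay within 20 kb, or where a gene led its role in Pol II at the start; Fzd4, genes without Pol II reads, genes called for Sox6 in the body, markers and other pathway genes were added after their values were seen. The 49 genes and the lists were chosen with earlier results of these data known. Sequences came from the NCBI Build 37 genome. Of its chromosomes, 21 of 21 matched the read files and 0 reads lay past an end.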

Additional observations from a re-analysis of the deposited data

How the results depend on the processing

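Depth set the limits: 1 read at a start was worth 0.325 and 0.181 RPKM in the Pol II libraries, and 29 of the 49 starts held at most 3 Pol II reads in both libraries together. Of the calls, 1 of 12 for Pol II at starts (Fzd2), 12 of 34 for Pol II in bodies and 0 of 5 for Sox6 in bodies were kept under every alternative run. The causes of the changes were not tested.

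For Pol II at starts, 12 genes higher became 24 with scaling to bins without gene or peak (59.3% of all genes). They became 1 with voom weights (3.59%) and 5 with the exact binomial test (23.0%). With 1 library left out the median log2 ratio ran from -0.08 to 1.26 over the 49 genes and from 0.65 to 0.95 over all genes. For Pol II in bodies, 15 higher became 28 and 19 lower became 2 with that scaling (64.3% and 2.22%), 11 were lower with the binomial test (15.7%), and leaving out 1 library gave 11 to 17 higher and 10 to 25 lower. With that scaling the ratios of these bodies turned to 0.07 for Dkk2, 0.33 for Dkk3, 0.74 for Fzd6, 0.52 for Lef1, 0.14 for Rspo1, 0.28 for Sfrp1, 0.39 for Wnt3, 0.19 for Wnt3a, 0.47 for Wnt5a, 0.71 for Wnt5b, 0.73 for Wnt7a, 0.29 for Wnt7b, 0.76 for Wnt9b and 0.63 for Wnt11. Fzd6, Lef1, Wnt3, Wnt5b, Wnt7a and Wnt9b were then called higher in place of lower. Calls in the bodies of all genes also rose and fell when 1 library was left out, so these swings were not particular to the Wnt genes. The median log2 ratio in bodies then ran from -0.51 to -0.23 over the 49 genes and from 0.09 to 0.2 over all genes. At the start of Ctnnb1 farthest 5′ the ratio was -0.88. For Sox6 at starts with all libraries kept, 0 became 1, Fzd4, with no filter (4.24%), with voom weights (0.721%) and with the replicate number as a block (1.47%). The calls moved more when 1 Sox6 library was left out, and the medians alone are given for such fits. Leaving out 1 library gave a median from 0.54 to 1.12 over the 49 genes and from 0.29 to 0.68 over all genes. For Sox6 in bodies, 5 became 8 with background scaling (11.3%), 0 with an equal pseudocount (0.994%) and 3 with the binomial test (4.78%). Leaving out 1 library gave a median from 0.33 to 0.51 over the 49 genes and from 0.13 to 0.21 over all genes. Sox6 peaks within 20 kb went from 0 genes for common peaks to 3 for replicate 1 and 1 for replicate 2. In 1 kb windows 0 of the 5 peaks held, against 69.4% of replicate 1 and 86.4% of replicate 2 peaks, common peaks included.

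The labels do not say that a replicate number marks a shared culture or day, though the authors called peaks with the input of each ChIP experiment. The correlation of same-numbered deviations was 0.001 and 0.022 at starts and -0.065 and 0.051 in bodies, for Pol II and Sox6. With the replicate number as a block, Pol II starts gave 11 higher (without Wnt4, 38.7% of all genes). Pol II bodies gave 15 higher and 18 lower (38.6% and 26.1%), where Wnt5a and Wnt11 were no longer called lower and Wnt8a was. Sox6 gave 1 higher at starts (Fzd4, 1.47%) and 12 higher and 3 lower in bodies (14.2% and 6.24%). Over all genes, 8388 Pol II starts became 748 with voom weights, 84 Sox6 starts ranged from 0 to 7858 over all alternatives and 985 Sox6 bodies from 169 to 6431, and 4738 lower Pol II bodies became 410 with background scaling.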
